A study of Mus musculus with 18 samples.

Results

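The maturation of the embryonic mouse stomach between E14.5 and E16.5 was followed in 6 of the 18 microarray samples of a study of the forming boundary between stomach and intestine. These samples were the arrays titled as stomach, 3 at each age, and every gene was described by its mean log2 intensity at E16.5 minus that at E14.5. Embryos were of the C57Bl/6J strain in all groups, and the labels name no mutation, transgene or treatment. The labels give the stomach segment as antrum, taken close to the pylorus, and the study collected pylorus and duodenum as adjoining segments at both ages. Of 174 embryos dissected at E14.5 and 95 at E16.5, tissue of each kind was divided at random into 3 pools. The p-values therefore measure the spread between pools, and the variation from embryo to embryo does not enter them. Each array measured RNA of whole tissue, with epithelium, mesenchyme, nerve and blood together, so fewer cells of a type and less RNA per cell cannot be told apart.

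The glandular stomach epithelium is lined by pit cells, which secrete gastrokines, trefoil factors and mucins, and its glands hold parietal cells that pump acid, chief cells that secrete pepsinogens, and endocrine cells. In mice the part of the stomach near the oesophagus, the forestomach, carries a squamous epithelium instead. In late fetal life the gastric and intestinal epithelia differentiate above a mesenchyme that forms muscle layers and houses the enteric nerves, and signals such as Hedgehog, Wnt, BMP and retinoic acid pass between the layers.

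Of 18193 genes measured, 7433 (40.9%) were called different between the ages, which means a limma adjusted p under 0.05. Among them 3417 were higher at E16.5 (18.8% of all genes measured) and 4016 lower (22.1%). At least 2-fold differences were found in 1407 called genes (7.73% of all genes measured), 875 upward (4.81%) and 532 downward (2.92%). The 3 pools of one age lay wholly above those of the other in 10532 genes (57.9%). Of the calls, 46.0% were higher at E16.5 on the deposited scale. That share was 57.8% once the arrays were quantile normalized and 59.0% once their medians were set equal, so the balance of rises and falls depended on the scaling. The median difference over all genes was 0.04. The SD of the difference between pools of the same age was 0.177 to 0.240 among the 3 pairs at E14.5 and 0.306 to 0.395 among those at E16.5. At E16.5 replicate 3 stood apart in stress, muscle and squamous genes, and replicate 2 in intestinal genes; their values are given beside the gene groups concerned. Levels below are log2 intensities of replicates 1, 2 and 3 in that order, and differences are log2 values ± SE from limma. Counts of rises and falls in the gene lists stand beside the 18.8% and 22.1% of all genes that were called higher and lower.

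The gastrokines Gkn1, Gkn2 and Gkn3 are neighbouring genes on chromosome 6 that encode secreted proteins of the pit cells, and Atp4a on chromosome 7 encodes the catalytic subunit of the proton pump of parietal cells. Gkn1, Gkn2 and Atp4a stood among the steepest rises, and Gkn3 belongs to the same gene cluster as the first 2. The 250 bases before their transcription starts are shown, from RefSeq on build GRCm38.p6, 5′ to 3′ on the strand of the gene. Capitals mark each GATAA or its other-strand form TTATC, the core of sites for GATA factors, and each TATAAA or TTTATA, the core of a TATA box.
Gkn1, chr6:87350916-87351165, minus strand: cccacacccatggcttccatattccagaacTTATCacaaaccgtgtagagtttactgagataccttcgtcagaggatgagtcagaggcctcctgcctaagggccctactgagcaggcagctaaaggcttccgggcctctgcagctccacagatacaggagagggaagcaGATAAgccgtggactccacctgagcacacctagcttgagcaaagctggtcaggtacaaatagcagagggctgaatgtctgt
Gkn2, chr6:87373115-87373364, plus strand: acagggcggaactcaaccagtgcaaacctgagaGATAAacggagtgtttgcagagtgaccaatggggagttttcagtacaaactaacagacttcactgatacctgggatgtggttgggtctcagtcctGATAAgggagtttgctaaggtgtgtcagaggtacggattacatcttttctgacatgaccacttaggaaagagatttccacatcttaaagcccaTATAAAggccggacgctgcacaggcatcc
Gkn3, chr6:87388936-87389185, minus strand: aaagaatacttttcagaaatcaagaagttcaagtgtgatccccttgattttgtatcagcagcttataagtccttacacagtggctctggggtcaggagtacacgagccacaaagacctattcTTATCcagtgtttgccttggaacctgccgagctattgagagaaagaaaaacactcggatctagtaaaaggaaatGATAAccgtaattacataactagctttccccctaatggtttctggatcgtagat
Atp4a, chr7:30711959-30712208, plus strand: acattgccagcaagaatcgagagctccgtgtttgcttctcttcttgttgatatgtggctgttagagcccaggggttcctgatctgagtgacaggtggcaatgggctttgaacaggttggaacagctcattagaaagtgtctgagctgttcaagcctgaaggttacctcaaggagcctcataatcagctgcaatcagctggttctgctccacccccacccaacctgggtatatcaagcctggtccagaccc
Each of the 3 gastrokine windows held 2 GATAA matches, which began 220 and 81 bases before the start in Gkn1, 217 and 122 in Gkn2 and 128 and 54 in Gkn3. Gkn2 also held TATAAA, 29 bases before the start, and no matches overlapped. Among 32851 windows of the same length, 22.6% held at least 1 GATAA, 4.3% held at least 2 and 12.4% held TATAAA. No match to either motif was present in the Atp4a window. Such matches describe the letters alone, and nothing in these data measured binding to them.

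Secreted products of the gastric surface rose steeply. Gkn1 read 6.41, 7.01 and 6.93 in the younger pools and 12.62, 13.50 and 13.28 in the older, a difference of 6.35 ± 0.44 (81.6-fold; limma adjusted p = 1.35e-07). Gkn2 went from 7.16, 7.91 and 7.53 to 13.42, 14.27 and 13.61, or 75.2-fold higher, and Gkn3 from 7.41, 8.06 and 8.04 to 11.04, 11.49 and 11.62, or 11.7-fold. In all 3 gastrokines the pools of the 2 ages were separated by more than the range within either age, and replicate 1 was the lowest pool at both ages. Of the trefoil factors, small peptides that protect the mucosa, Tff2 rose from 8.17, 10.07 and 9.0 to 12.52, 13.01 and 12.70, a difference of 3.66 ± 0.45, and Tff1 rose from 12.04, 12.63 and 12.49 to 14.57, 15.00 and 14.73, a difference of 2.38 ± 0.33. In both trefoil factors the lowest pool of E16.5 lay above the highest of E14.5.

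Within the list of gastric surface and mucus genes, 15 of 19 measured members rose and 0 fell, with a median difference of 1.83 against 0.04 over all genes. The sulfotransferase Sult1c2 went from 4.54, 5.34 and 4.93 to 9.65, 11.01 and 10.61, a 44.8-fold rise. Psca, which encodes a surface protein of gastric mucous cells, went from 6.28, 7.30 and 6.79 to 11.41, 12.20 and 12.03 (34.1-fold). The membrane mucin Muc1 rose by 2.17 and the aspartic protease Ctse, cathepsin E, by 2.21. A second Ctse probe set moved by 0.36 and was not called. Muc5ac, the main secreted mucin of adult pit cells, did not pass the threshold: its pools read 8.13, 8.38 and 8.16 at E14.5 and 9.28, 8.83 and 8.63 at E16.5, a difference of 0.69 ± 0.28 (limma adjusted p = 0.0575). Cldn18, a tight junction protein of the stomach, was likewise uncalled at 0.86 ± 0.52, with levels of 12.46, 12.88 and 12.90 and then 13.70, 13.60 and 13.51. Both were higher in all 3 pools of E16.5 than in any of E14.5, but pools of the 2 ages did not overlap in 57.9% of all genes. Their SEs draw on the spread within all 6 groups. In the fit on the stomach arrays alone 17 of the 19 list members rose. By contrast the gel-forming mucin Muc5b, outside the list, rose from 6.63, 7.17 and 6.71 to 11.24, 12.46 and 13.08, and Dmbt1, a secreted defence glycoprotein, from 5.98, 7.53 and 7.28 to 12.32, 13.42 and 13.42, a 69.7-fold rise.

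**Figure D1:**
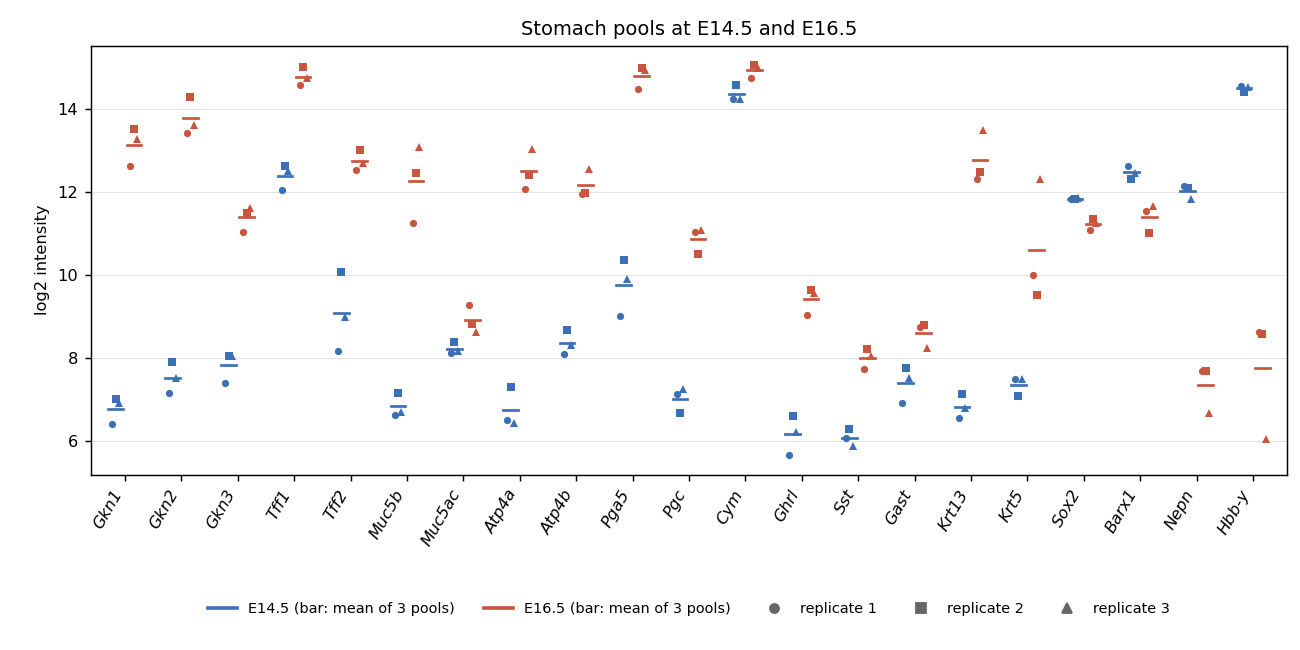
Log2 intensity of 21 genes in each stomach pool (y axis; genes along the x axis). Blue symbols are the 3 pools of E14.5 and red symbols the 3 pools of E16.5, with a horizontal line at each mean; the symbol shape gives the replicate. Gkn1, Atp4a and Krt13 lay between 6.41 and 7.31 at E14.5 and above 12 at E16.5, while Nepn and Hbb-y went the other way.

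Genes of acid secretion also rose, led by both subunits of the proton pump. Atp4a climbed from 6.51, 7.31 and 6.44 to 12.07, 12.40 and 13.02, a rise of 5.74 ± 0.22 (53.6-fold; limma adjusted p = 9.25e-10). Atp4b, the subunit that carries the pump to the membrane, rose from 8.11, 8.67 and 8.31 to 11.94, 11.98 and 12.55, a difference of 3.79 ± 0.16. At E16.5 replicate 3 was the highest pool for both subunits, whereas replicate 2 was the highest for Gkn1 and Gkn2. The potassium channel that recycles potassium for the pump has subunits encoded by Kcnq1 and Kcne2. Kcnq1 went from 6.64, 7.15 and 6.97 to 9.51, 9.06 and 9.85, and Kcne2 from 5.21, 6.04 and 5.69 to 8.29, 8.43 and 8.57. Car2, a carbonic anhydrase that supplies protons, rose by 1.67. Of the 17 acid secretion genes measured 12 rose and 1 fell, with a median of 0.59. The falling member was the water channel Aqp4, which went from 9.01, 9.22 and 9.01 to 7.80, 7.56 and 7.38, a difference of -1.50 ± 0.13.

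The digestive enzymes of chief cells moved by unequal amounts. Pga5, a pepsinogen, rose from 9.01, 10.35 and 9.91 to 14.48, 14.97 and 14.94, a difference of 5.04 ± 0.48 (32.9-fold), and Pgc, pepsinogen C, rose from 7.13, 6.67 and 7.25 to 11.04, 10.50 and 11.08, a difference of 3.86 ± 0.43. Cym, the milk-clotting enzyme chymosin, was already at 14.24, 14.56 and 14.24 at E14.5 and read 14.73, 15.05 and 14.98 at E16.5. Its difference of 0.57 ± 0.43, with an SE drawn from all 6 groups, was not called (limma adjusted p = 0.303). The SD of its pools was 0.18 at E14.5 and 0.17 at E16.5. Its pools did not overlap, as in 57.9% of all genes, and its level lay close to the highest deposited value, 15.22. Bhlha15, a transcription factor of secretory cells also known as Mist1, went from 6.75, 7.26 and 7.35 to 9.40, 9.46 and 9.38, and Cblif, gastric intrinsic factor, from 5.41, 6.25 and 5.73 to 8.85, 9.42 and 9.64. These made 4 rises and 0 falls among the 7 digestive secretion genes measured, with a median of 2.29. In the fit on the stomach arrays alone 5 of the 7 rose.

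Hormones of the stomach were low at E14.5 and rose. Ghrelin (Ghrl), the appetite hormone, went from 5.67, 6.62 and 6.22 to 9.03, 9.64 and 9.56, a difference of 3.24 ± 0.45 (9.45-fold). Somatostatin (Sst), which restrains other gastric endocrine cells, rose from 6.09, 6.29 and 5.88 to 7.73, 8.22 and 8.05, and gastrin (Gast), the hormone of antral G cells, from 6.92, 7.76 and 7.52 to 8.74, 8.80 and 8.24, differences of 1.91 ± 0.27 and 1.19 ± 0.28. Neurog3, the factor that starts the endocrine programme, rose by 1.12, and Hdc, the enzyme that makes histamine, by 0.72. In the opposite direction the vesicular amine transporter Slc18a2 fell from 8.23, 8.21 and 7.82 to 7.07, 6.44 and 6.88, and the endocrine factor Insm1 fell by 1.0. Both genes are also expressed in developing neurons, and which cells their falls came from was not tested. Over the 25 endocrine genes 11 rose and 4 fell, with a median of 0.34. Without replicate 1 of E16.5 the counts were 7 rises and 2 falls, and without replicate 2 of E16.5 there were 2 falls.

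Among transcription factors of the foregut epithelium, 14 of 21 rose and 0 fell, with a median of 0.74. Foxq1, a regulator of mucin production in pit cells, rose from 9.61, 9.37 and 10.13 to 11.62, 11.72 and 11.84, and the epithelial ETS factor Ehf from 7.57, 7.90 and 8.21 to 9.56, 9.87 and 9.84. Klf4 and Elf3, factors of differentiating epithelium, rose by 1.46 and 1.17, and Pdx1, an antral and duodenal factor, by 0.84. Sox2, the classical factor of foregut identity, was not called: it read 11.83, 11.82 and 11.85 at E14.5 and 11.07, 11.34 and 11.26 at E16.5, a difference of -0.61 ± 0.40 (limma adjusted p = 0.235). All 3 pools of E16.5 were lower than those of E14.5, where 57.9% of all genes had pools without overlap. The SE draws on the spread within all 6 groups of the series, while the SD of the Sox2 pools was 0.02 at E14.5 and 0.14 at E16.5. The fit on the stomach arrays alone called 1 fall in this list, as did the fit with array weights. Gata4, a GATA factor of gastric epithelium, read 10.62, 10.59 and 10.77 and then 11.06, 10.78 and 10.62, with overlapping pools and a difference of 0.16 ± 0.12.

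**Figure D2:**
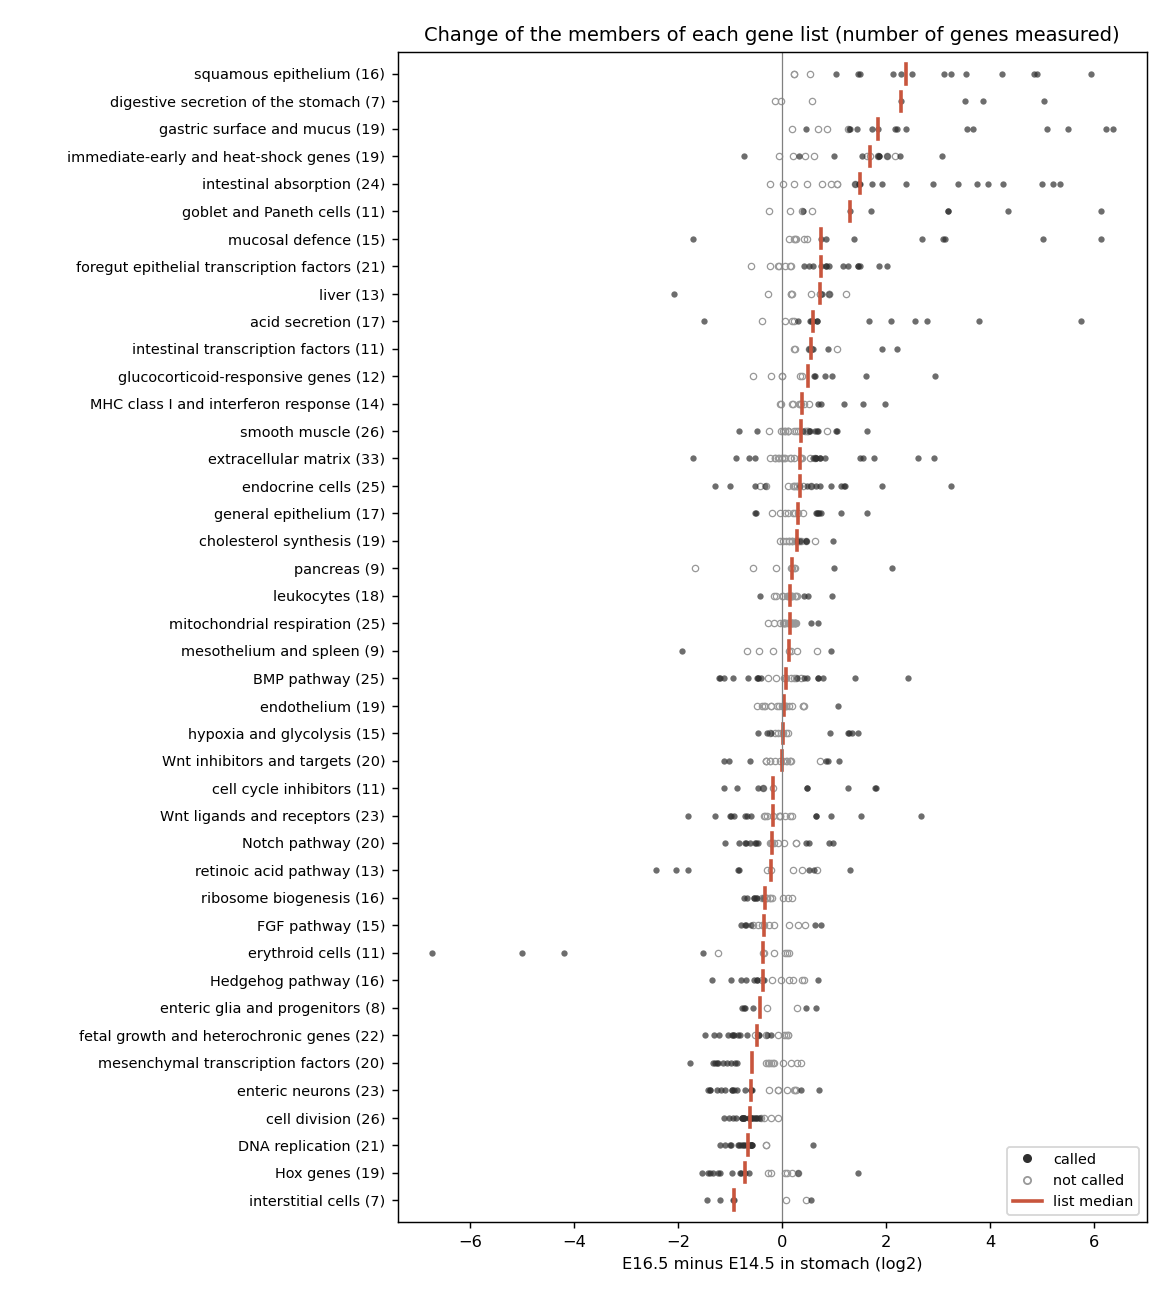
Difference between E16.5 and E14.5 in stomach (x axis, log2) for every measured member of the 42 gene lists, sorted by list median. Filled points are called genes, open points are not called, and the red mark is the median. Squamous, gastric secretory, immediate-early and heat-shock, and intestinal lists lie at the top, and interstitial cell and Hox lists at the bottom.

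Of the 16 squamous epithelium genes measured 13 rose and 0 fell, with a median of 2.38, next to 2.29 for digestive secretion. The order of these lists turned without replicate 3 of E16.5, at 2.12 and 2.31, without replicate 2 of E14.5, at 2.34 and 2.36, and without genes under log2 7, at 3.17 and 3.51. Krt13, a keratin of the upper layers of internal squamous epithelia, went from 6.56, 7.13 and 6.79 to 12.32, 12.47 and 13.48, a difference of 5.93 ± 0.29 (61-fold). Its partner keratin Krt4 rose from 7.29, 7.16 and 7.19 to 11.51, 12.25 and 12.55. The cornification genes Krtdap, Rptn and Csta1 rose 61.1-, 28- and 26.8-fold, and the epidermal secreted protein Dmkn rose 64.6-fold. Basal layer genes behaved differently among the pools. Krt5 read 7.50, 7.08 and 7.49 at E14.5 and 9.99, 9.52 and 12.32 at E16.5, and Krt14 read 5.12, 5.35 and 5.21 and then 6.55, 6.33 and 9.17, so replicate 3 of E16.5 stood above the other pools in both. The basal factor Trp63, also known as p63, showed the same order, with 8.02, 7.88 and 10.64 at E16.5 against 7.73, 6.79 and 7.55 at E14.5. Without replicate 3 its difference was 0.59 and no longer called, and the call was also lost without replicate 2 or replicate 3 of E14.5, while Krt5 and Krt14 remained called. The mean level over the list was 7.12 to 7.27 in the pools of E14.5 and 9.39, 9.69 and 10.33 in those of E16.5. The labels describe antrum, where the epithelium is glandular; the share of squamous tissue in each pool was not tested.

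Genes of the intestine rose in the stomach as well. Of 24 intestinal absorption genes 15 rose and 0 fell, with a median of 1.49. Fabp1 and Fabp2, fatty acid binding proteins of enterocytes, went from 5.99, 7.07 and 7.01 to 10.78, 13.39 and 11.93 and from 6.03, 6.57 and 6.61 to 10.38, 12.60 and 11.83. Apoa4, an apolipoprotein of chylomicrons, went from 6.41, 6.72 and 6.69 to 10.55, 12.88 and 11.35, and the milk sugar enzyme Lct from 5.33, 5.21 and 5.67 to 8.18, 10.79 and 8.49. In each of these 4 genes replicate 2 was the highest pool of E16.5 and replicate 1 the lowest. The brush border peptidases Mme and Mep1b were not called, with differences of -0.23 ± 0.51 and 1.05 ± 0.51. The mean level of the list was 6.23 to 6.47 at E14.5 and 7.87, 9.31 and 8.28 at E16.5. Cdx2, the factor that sets intestinal identity, read 5.82, 6.13 and 6.31 at E14.5 and 6.69, 7.63 and 6.54 at E16.5, again highest in replicate 2. Its difference of 0.87 ± 0.24 lost its call without replicate 1 of E14.5 (limma adjusted p = 0.0515). It was also lost when both Cdx2 probe sets were averaged, as the second one moved by 0.12. The nuclear receptors Nr1h4 and Nr1i2, which sense bile acids and xenobiotics, rose by 2.20 and 1.91. In all, 5 of 11 intestinal transcription factors rose and 0 fell, with a median of 0.55; without replicate 1 of E14.5 the count was 3. The part that adjoining intestinal tissue may have in these levels was not tested.

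Goblet and Paneth cell genes counted 7 rises and 0 falls among 11, with a median of 1.31. Dmbt1 led them, followed by Clca1, a goblet cell secreted protein that went from 4.91, 5.24 and 5.18 to 8.38, 10.29 and 9.67. Of the 15 mucosal defence genes 8 rose and 1 fell, with a median of 0.74. Lypd8, a surface protein that keeps bacteria off the epithelium, rose from 7.85, 8.66 and 8.48 to 12.87, 13.78 and 13.38 (32.3-fold), while the chemokine Cxcl15 fell from 9.63, 9.68 and 9.65 to 8.20, 7.98 and 7.62. General epithelial genes moved less, with 7 rises and 2 falls among 17 and a median of 0.31. Krt19, a simple epithelial keratin, rose by 1.13, whereas Cdh1 and Epcam, which mark all epithelial cells, were not called at 0.25 ± 0.13 and -0.20 ± 0.22. The 2 falls, Cldn3 and Marveld3, were both lost after quantile normalization and without replicate 1 or replicate 3 of E14.5. The other Cldn3 probe sets moved by -0.96, -0.89 and -0.71 and were called, while a second Marveld3 probe set was called in the opposite direction. Cldn6, a claudin of embryonic epithelia outside the list, fell from 11.84, 11.35 and 11.78 to 10.19, 9.89 and 8.75. The mean level of the general list was 11.25 to 11.46 at E14.5 and 11.60 to 11.81 at E16.5.

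Transcription factors of the stomach mesenchyme went down. Of 20 measured, 10 fell and 0 rose, with a median of -0.59. Barx1, which patterns the stomach mesenchyme, fell from 12.63, 12.32 and 12.45 to 11.53, 11.00 and 11.67, a difference of -1.07 ± 0.23 (limma adjusted p = 0.00212). Osr1 and Hand2 both act in embryonic mesenchyme. Osr1 fell from 10.07, 9.71 and 9.91 to 7.48, 8.37 and 8.53 and Hand2 from 12.73, 12.62 and 12.56 to 11.27, 11.18 and 11.47. Dimmer Hand2 probe sets moved by -0.15 and -0.31 and were not called. Of the factors linked to the pyloric sphincter, Six2 fell by 0.87 and Isl1 by 0.91, while Nkx2-5 and Gata3 were uncalled at -0.16 ± 0.18 and -0.32 ± 0.35. Leaving out any 1 of the 6 stomach pools removed the Isl1 call, with differences from -1.02 to -0.81. A second Isl1 probe set moved by -1.19 and was called. Sox11, a factor of immature cells, fell 5.95-fold from 12.21, 12.17 and 12.22 to 9.51, 9.46 and 9.91. Nepn, which encodes a small leucine-rich proteoglycan known as a marker of embryonic foregut and midgut endoderm, had the third largest fall by the naming rule, from 12.13, 12.09 and 11.83 to 7.68, 7.68 and 6.69 (25.4-fold).

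Hox genes, which set position along the body axis, counted 11 falls and 2 rises among 19, with a median of -0.71. The falls were in genes of paralogue groups with low numbers. Hoxd3 fell from 8.66, 9.02 and 8.73 to 7.63, 7.06 and 7.10 and Hoxa5, which is needed for stomach patterning, from 10.90, 10.83 and 10.77 to 9.28, 9.05 and 9.88. A second Hoxa5 probe set moved by -0.26 and was not called. The rises were in Hoxc8 and Hoxd9. Hoxc8 was low in 5 pools and read 4.97, 5.17 and 7.66 at E16.5 against 4.46, 4.43 and 4.57 at E14.5, so its rise lay mainly in replicate 3. Without replicate 3 its difference was 0.58, and without replicate 1 or replicate 2 of E14.5 it was not called. Hoxd9 moved by 0.30 ± 0.11, and leaving out any 1 pool except replicate 2 of E16.5 removed its call.

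Within the Hedgehog pathway 1 ligand rose, while several transducers of the signal fell. Shh, the epithelial ligand, read 12.13, 11.80 and 12.05 and then 12.37, 12.45 and 12.31; the difference of 0.38 ± 0.19 was not called. Ihh, the second epithelial ligand, rose from 10.83, 10.52 and 10.85 to 11.67, 11.45 and 11.12. The transcription factors Gli2 and Gli3, which carry the signal in the mesenchyme, fell by 0.99 and 1.35, and the signal transducer Smo and the co-receptor Gas1 fell by 0.69 and 0.80. Targets that report pathway activity were not called: Ptch1 at -0.40 ± 0.17, Gli1 at -0.19 ± 0.26 and Hhip at 0.42 ± 0.25. Over the 16 genes measured 8 fell and 1 rose, with a median of -0.38.

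Of 23 Wnt ligands and receptors 5 rose and 8 fell, beside 18.8% and 22.1% of all genes, with a median of -0.18. Wnt4 went from 8.20, 7.93 and 7.99 to 10.43, 10.36 and 11.30, a 6.31-fold rise, and Wnt11 rose by 0.94. The co-receptor Lrp5 rose from 5.76, 5.42 and 5.87 to 7.87, 6.87 and 6.88. Wnt5a, a mesenchymal ligand of the pathway that does not act through beta-catenin, fell from 9.40, 9.40 and 9.14 to 8.75, 8.60 and 8.58, and its receptor Ror1 fell from 9.92, 10.04 and 9.76 to 7.95, 7.94 and 8.38. The frizzled receptor Fzd7 fell by 1.30. Among 20 Wnt inhibitors and targets 3 rose and 3 fell. Their median was -0.01, and 0.06 with arrays centred on their median, so the list had no settled direction. The secreted inhibitors Sfrp1 and Dkk2 fell by 1.13 and 1.03, and the related Sfrp4 rose by 1.09. The target Axin2 and the stem cell receptor Lgr5 were uncalled at 0.15 ± 0.23 and 0.73 ± 0.34.

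**Figure D3:**
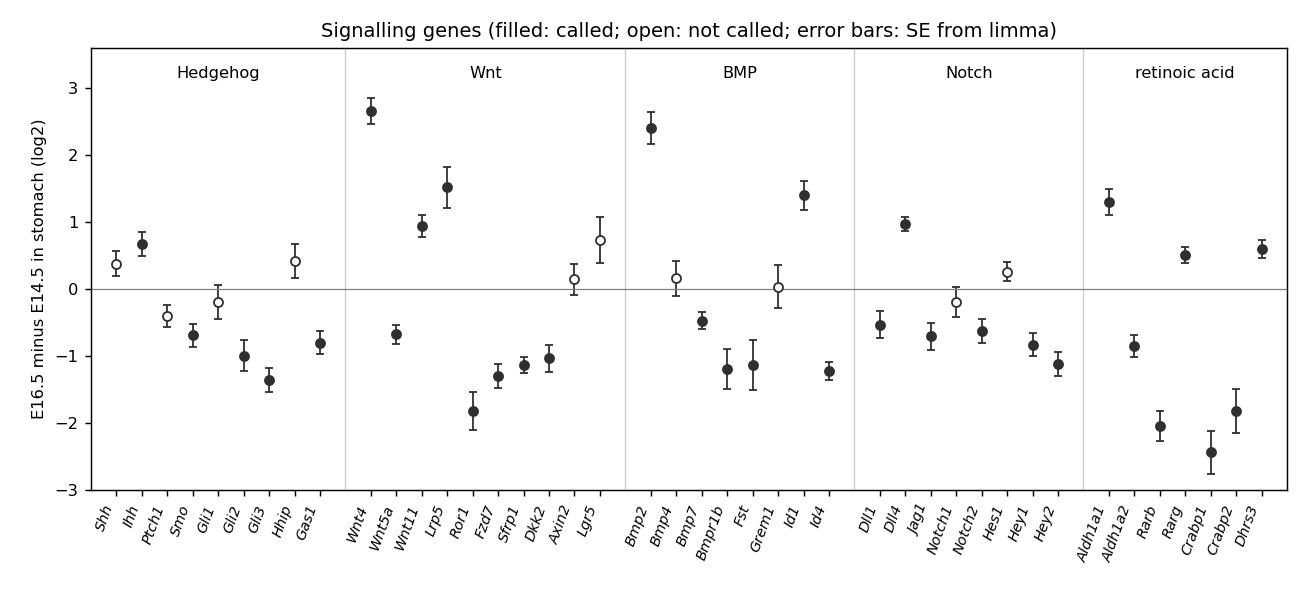
Difference between E16.5 and E14.5 in stomach (y axis, log2) for named members of 5 signalling pathways, grouped by pathway along the x axis, with SE from limma (3 pools against 3). Filled points are called and open points are not; Wnt4 and Bmp2 lie highest, and Crabp1 lies lowest.

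The BMP pathway counted 8 rises and 9 falls among 25 genes, with a median of 0.07. Bmp2 rose from 8.12, 9.02 and 9.07 to 10.86, 11.22 and 11.36, a 5.31-fold difference, whereas Bmp4, the ligand of the mesenchyme, read 10.06, 9.31 and 9.78 and then 9.40, 9.85 and 10.38 and was not called. Id1, a direct target, rose by 1.40, and Id4, of the same family, fell by 1.22. The receptor Bmpr1b fell from 9.38, 9.56 and 9.47 to 8.40, 8.09 and 8.35. The antagonist Fst fell from 10.32, 10.40 and 10.24 to 8.89, 8.75 and 9.93. That call was lost without any 1 of the pools except replicate 3 of E16.5, with differences from -1.50 to -0.91. A second Fst probe set moved by -1.19 and was called. The antagonist Grem1 was uncalled at 0.04 ± 0.32.

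Of 20 Notch pathway genes 4 rose and 8 fell, beside 18.8% and 22.1% of all genes, with a median of -0.20. The ligand Dll4 rose from 6.93, 6.80 and 6.97 to 7.83, 7.93 and 7.85. The target Hey2 fell from 6.72, 6.81 and 6.63 to 5.61, 5.72 and 5.49 and the related Hey1 by 0.83, while the target Hes1 was uncalled at 0.26 ± 0.14. Of the receptors, Notch2 fell by 0.62 and Notch1 was uncalled at -0.19 ± 0.23. The Notch2 call was lost when its probe sets were averaged, as the second one moved by 0.30. Without replicate 1 of E14.5 there were 5 falls, and without replicate 2 of E14.5 or replicate 1 of E16.5 there were 2 rises. The FGF pathway counted 2 rises and 4 falls among 15, with a median of -0.36, and 7 falls without replicate 3 of E16.5. The ETS factor Etv5, a target of FGF signalling, fell by 0.79; the mesenchymal ligand Fgf7 rose by 0.75, and Fgf10 was uncalled at -0.39 ± 0.22. A second probe set of the receptor Fgfr4, which fell by 0.72, was called in the opposite direction, and the call was lost when the probe sets were averaged.

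Retinoic acid genes included some of the steepest falls outside blood. Crabp1, which binds retinoic acid in the cytoplasm, fell from 9.88, 9.88 and 9.88 to 7.56, 7.56 and 7.22, a difference of -2.43 ± 0.32, and Crabp2 from 9.26, 9.13 and 9.24 to 7.22, 7.07 and 7.87. The receptor Rarb, itself a target of retinoic acid, fell from 10.29, 10.32 and 10.25 to 8.17, 8.22 and 8.36. The synthesizing enzymes moved apart, as Aldh1a2 fell by 0.85 and Aldh1a1 rose by 1.30. In sum 3 of 13 genes rose and 5 fell, with a median of -0.22. Among 12 genes known to respond to glucocorticoids 6 rose and 0 fell, with a median of 0.49. Pdk4, a kinase that limits glucose oxidation, rose from 5.44, 5.47 and 5.63 to 8.29, 8.57 and 8.51, and the factor Klf9 from 9.18, 9.51 and 9.13 to 10.53, 10.51 and 11.59, highest in replicate 3.

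Smooth muscle genes were uneven, and highest in replicate 3 of E16.5. Of 26 genes 9 rose and 2 fell, with a median of 0.35. Des, the intermediate filament desmin, rose from 8.86, 8.67 and 8.90 to 10.32, 10.05 and 10.95. Contractile genes with strong signals were not called: Actg2, enteric actin, at 0.49 ± 0.20 and Myh11, smooth muscle myosin, at 0.10 ± 0.28. Myh11 read 11.97, 11.41 and 11.54 at E14.5 and 11.29, 11.38 and 12.54 at E16.5, so only replicate 3 was above the earlier pools. The mean over the list was 10.42 to 10.57 at E14.5 and 10.65, 10.61 and 11.24 at E16.5. Without replicate 3 of E16.5 there were 4 rises and 3 falls and the median was 0.18; after quantile normalization 14 rose. Leaving out replicate 1 of E14.5, or replicate 1 or replicate 2 of E16.5, took the falls to 0. Of 7 genes of interstitial cells, the pacemaker and signalling cells of gut muscle, 4 fell and 1 rose, with a median of -0.92. Pdgfra fell from 11.80, 11.50 and 11.35 to 10.02, 10.43 and 10.61, and Kit, the receptor that pacemaker cells need, from 12.12, 11.89 and 11.90 to 11.29, 11.14 and 10.73.

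Of 33 extracellular matrix genes 12 rose, where 18.8% of all genes did, and 4 fell, where 22.1% of all genes did; the median was 0.34. Dpt, dermatopontin, rose from 6.89, 7.66 and 7.10 to 9.72, 10.01 and 10.68, and the microfibril gene Mfap5 from 6.10, 6.55 and 5.97 to 8.23, 8.94 and 9.27. Elastin (Eln) rose by 1.55 and tenascin C (Tnc) by 1.76. The proteoglycan Vcan, of loose embryonic matrix, fell from 11.74, 11.61 and 11.38 to 9.80, 10.04 and 9.74. In Dpt, Mfap5, Eln and Tnc alike, replicate 3 was the highest pool of E16.5. Without it 8 genes rose and 4 fell, and the list median was 0.11; without replicate 1 of E14.5 or replicate 2 of E16.5 there were 2 falls.

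Enteric neuron genes fell. Of 23 measured, 14 fell and 2 rose, with a median of -0.60. Tubb3, a neuronal tubulin, fell from 9.89, 9.86 and 9.96 to 8.69, 8.45 and 8.38, the neurofilament Nefl from 9.67, 9.63 and 9.58 to 8.25, 8.17 and 8.20, and Ret, the receptor that guides neural crest cells into the gut, from 10.44, 10.56 and 10.34 to 9.45, 9.10 and 9.48. The rises were in Vip and Nos1, which make the transmitters of mature inhibitory neurons. Vip went from 9.51, 9.93 and 9.53 to 10.31, 10.35 and 10.45; Nos1 moved by 0.35 ± 0.13, and its call was lost without any 1 pool except replicate 2 of E16.5. Brinp1 and Opcml, also known from neurons, were among the largest falls, at -2.46 ± 0.29 and -2.17 ± 0.29. Of 8 genes of glia and their progenitors 4 fell and 2 rose, with a median of -0.42. Fabp7, of glial progenitors, fell by 0.77, while S100b and Gfap, of mature glia, rose by 0.65 and 0.46.

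Genes of cell division and DNA replication fell nearly together. Of 26 cell division genes 22 fell and 0 rose, with a median of -0.63. Kif20a, a motor of cell separation, went from 10.35, 10.45 and 10.23 to 9.18, 9.40 and 9.10, and the checkpoint kinase Bub1 from 11.15, 11.19 and 11.10 to 10.05, 10.17 and 10.15. The proliferation antigen Mki67 read 13.07, 12.93 and 13.00 and then 12.54, 12.40 and 12.57; its call was lost after quantile normalization and without any 1 pool except replicate 3 of E16.5, with differences from -0.53 to -0.45. Of 21 DNA replication genes 18 fell and 1 rose, with a median of -0.66. The nucleotide enzyme Tyms fell by 1.19, the helicase subunit Mcm5 by 0.75 and the sliding clamp Pcna by 0.58. The other call was a higher Fen1, of which a second probe set was called in the opposite direction; the call was lost when the probe sets were averaged and without any 1 pool except replicate 2 of E16.5 (limma adjusted p up to 0.205). Cell cycle inhibitors were divided, with 5 rises and 4 falls among 11 and a median of -0.18. Cdkn1a, which encodes p21, rose from 9.65, 9.60 and 9.81 to 11.24, 11.47 and 11.69, and Cdkn2b from 6.51, 7.07 and 6.78 to 8.17, 8.88 and 8.73, while Ccng2 fell by 1.13. Without replicate 3 of E16.5 there were 3 rises.

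Of 22 genes of fetal growth and developmental timing 14 fell and 0 rose, with a median of -0.49. Hmga2, a chromatin protein of fetal growth, fell from 13.09, 13.06 and 12.80 to 11.90, 11.59 and 11.54. The imprinted genes Mest and Peg3 fell by 0.97 and 0.86, and Trim71, a regulator of developmental timing, by 1.05. Igf2, the fetal growth factor, moved by -0.22 ± 0.08, from 14.54, 14.43 and 14.46 to 14.29, 14.22 and 14.27, and leaving out any 1 stomach pool removed that call. Gpc3, a growth-restraining glypican, read 8.89, 11.29 and 9.08 at E16.5 against 11.28, 11.13 and 11.33 at E14.5, so replicate 2 had kept the earlier level and the pools overlapped. Without replicate 2 the Gpc3 difference was -2.26, and without any other stomach pool it was not called. Leaving out replicate 1 of E14.5 gave 9 falls in the list. Ribosome biogenesis genes showed 7 falls and 0 rises among 16, with a median of -0.34 and 4 falls after quantile normalization; the nucleolar protein Npm1 fell by 0.74.

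Genes of energy and lipid metabolism gave small differences. Of 25 mitochondrial respiration genes 2 rose and 0 fell, with a median of 0.14, Sdhc by 0.69 and Uqcrc1 by 0.55, and after quantile normalization 13 rose. The Sdhc call was lost without replicate 2 of E14.5. Of 19 cholesterol synthesis genes 5 rose and 0 fell, with a median of 0.29; Ebp rose by 0.97. That count was 10 after quantile normalization, 8 with centred arrays, 2 without replicate 1 of E14.5, 8 without replicate 1 of E16.5 and 3 without replicate 2 of E16.5. Of 15 hypoxia and glycolysis genes 5 rose and 3 fell, with a median of 0.02; Egln3 and Ndrg1, which respond to low oxygen, rose by 1.45 and 1.33, and P4ha1 fell by 0.47. Quantile normalization or centring left 1 of those falls. Of 14 genes of MHC class I and the interferon response 5 rose and 0 fell, with a median of 0.38. H2-K1 rose from 8.77, 9.38 and 9.22 to 11.12, 11.38 and 10.77 and H2-D1 by 1.55; these are close relatives, and their probe sets may share signal.

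Immediate-early and heat-shock genes rose most in replicate 3 of E16.5. Of 19 genes 9 rose and 1 fell, with a median of 1.68. Fos, an immediate-early factor, read 7.71, 8.87 and 8.03 at E14.5 and 10.37, 10.25 and 13.21 at E16.5, and Atf3, a factor induced by stress, 7.07, 7.31 and 7.06 and then 8.65, 7.85 and 11.75. Hspa1b, an inducible heat-shock protein, read 9.76, 9.25 and 12.34 at E16.5 against 8.30, 8.54 and 8.47. In each of the 3 genes replicate 3 was over 2 log2 units above the other E16.5 pools. The list mean was 8.56 to 8.71 at E14.5 and 9.43, 9.10 and 11.44 at E16.5. Without that pool 4 genes rose and the median was 0.57, Atf3 and Hspa1b were not called (differences 1.10 and 1.07), and Fos kept its call. Leaving out any 1 pool of E14.5 gave 5 rises and also removed the calls of Atf3 and Hspa1b. Hsph1, a heat-shock cochaperone, fell by 0.74. Over all genes 6428 were called without this pool.

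**Figure D4:**
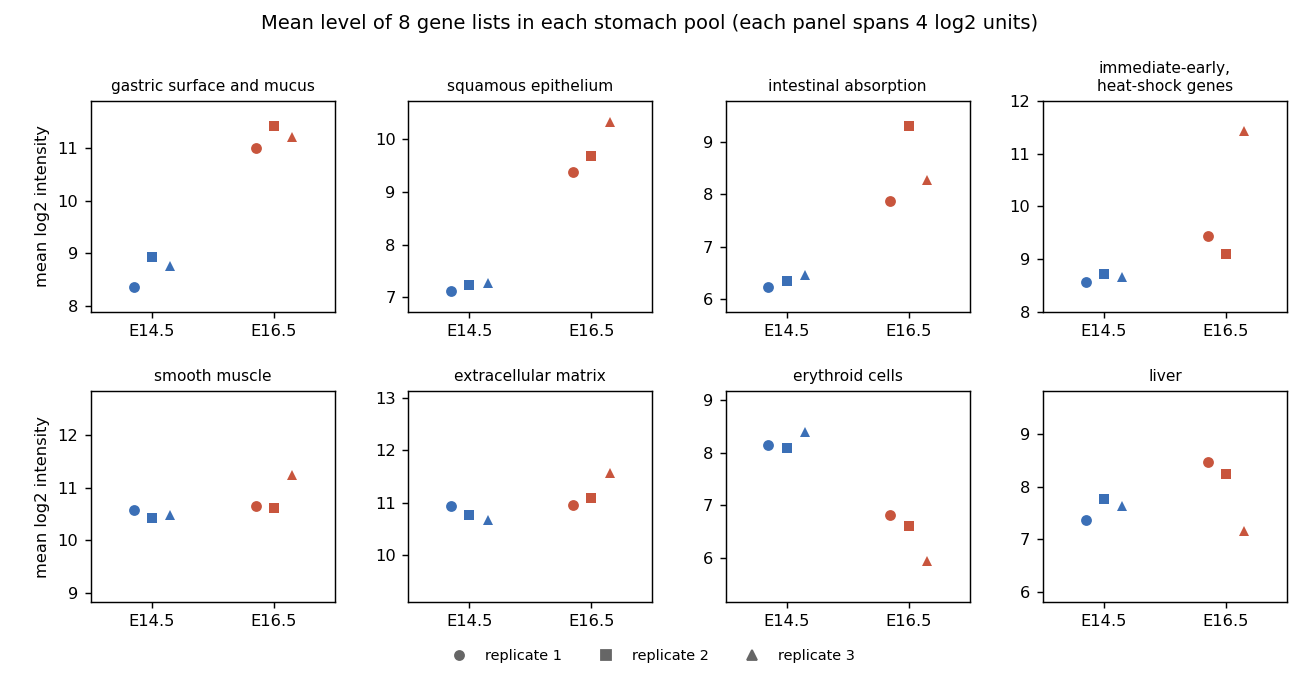
Mean log2 intensity of the members of 8 gene lists (y axis, 4 log2 units in each panel) in the stomach pools of E14.5 (blue) and E16.5 (red), with the symbol shape giving the replicate. Replicate 3 of E16.5 is highest for stress genes at 11.44 and for smooth muscle at 11.24 and lowest for liver genes at 7.15, and replicate 2 is highest for intestinal absorption at 9.31.

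Blood gave the deepest falls of the comparison. The embryonic globins, which primitive red cells carry, dropped in every pool. Hbb-y fell from 14.55, 14.41 and 14.52 to 8.64, 8.58 and 6.05, a difference of -6.74 ± 0.69 (107-fold), Hba-x from 11.44, 11.13 and 11.68 to 6.61, 6.78 and 5.84, and Hbb-bh1 from 9.23, 9.55 and 9.55 to 5.31, 5.37 and 5.04. For Hbb-y replicate 3 of E16.5 was the lowest pool, by over 2 log2 units. Alas2, the haem enzyme of red cells, read 9.01, 8.61 and 9.53 and then 9.72, 9.12 and 8.56, and its pools overlapped. Slc4a1, a red cell membrane protein, fell by 1.53 and was not called without any 1 of the pools except replicate 1 of E16.5. The 11 erythroid genes counted 4 falls and 0 rises, with a median of -0.38 and list means of 8.09 to 8.40 at E14.5 and 6.81, 6.61 and 5.94 at E16.5. The probe set for the adult globin Hba-a1 read 4.66 to 4.87 across the 6 pools, near the bottom of the table.

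Markers of further cell types gave few calls. Of 18 leukocyte genes 3 rose and 1 fell, beside 18.8% and 22.1% of all genes, with a median of 0.15. Cd14 and C1qc, of macrophages, rose by 0.95 and 0.49, and the common leukocyte antigen Ptprc was uncalled at 0.28 ± 0.13. Leaving out any 1 pool left 0 or 1 leukocyte rises, and the calls of Cd14 and C1qc were lost in 4 and 5 of those 6 fits. Of 19 endothelial genes 1 rose, the lymphatic receptor Lyve1, which went from 6.65, 6.76 and 6.77 to 7.61, 7.97 and 7.81, and 0 fell, with a median of 0.04; the vascular cadherin Cdh5 was uncalled at -0.48 ± 0.30. Liver genes read 7.36 to 7.77 on average at E14.5 and 8.48, 8.24 and 7.15 at E16.5. Of 13 measured 2 rose and 1 fell, with a median of 0.72. Alb, serum albumin, ran from 9.72, 10.72 and 10.36 at E14.5 to 11.61, 11.18 and 8.59 at E16.5, and its difference of 0.19 ± 0.70 changed sign when single pools were left out. Without replicate 3 of E16.5, 5 liver genes rose. Ambp, a plasma protein precursor, fell from 10.65, 10.66 and 10.65 to 9.17, 8.88 and 7.67, while the carrier Ttr rose by 0.77. Of 9 pancreas genes 2 rose, where 18.8% of all genes did, and 0 fell, with a median of 0.18. The rises were the protease Cela1 by 2.10 and Gcg, glucagon, by 0.99. The Gcg call was lost in 4 of the 6 fits that left out 1 stomach pool, those without replicate 1 or replicate 2 of either age (limma adjusted p up to 0.0947). The exocrine enzyme Cpa1 was uneven at E14.5, at 8.18, 7.21 and 9.73. It was lower in every pool of E16.5, at 6.68, 6.71 and 6.68, where 57.9% of all genes had pools without overlap. Its difference of -1.68 ± 0.70 was not called. Among 9 genes of mesothelium and spleen Upk3b rose by 0.93 and Bnc1 fell by 1.93, with a median of 0.12.

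Whether these changes differed from those in the neighbouring tissues was tested as the change in stomach minus the change in pylorus or in duodenum. Both comparisons share the stomach arrays. The duodenum at E14.5 entered with 2 samples, because its first 2 arrays differed by an SD of 0.079 against 0.177 to 0.497 in the other 17 pairs and were averaged. The stomach and pylorus changes differed in 453 genes (2.49%), 172 (0.945%) with the higher change in stomach and 281 (1.54%) with the lower. Against duodenum 4996 genes (27.5%) differed, 2829 (15.5%) with the higher change in stomach and 2167 (11.9%) with the lower. In simulated data of the same design, a log2 difference of 1 between changes was recovered for 59.7% of genes against either tissue. There only 67, 67 and 66 of 18193 genes changed, by 0.5, 1 and 2. That is far fewer than were called against duodenum, so the share need not hold for these data. The pylorus count ran from 209 without replicate 2 of pylorus at E16.5 to 701 without replicate 1 of pylorus at E14.5, and was 1732 with array weights. The duodenum count was 3256 without replicate 3 of duodenum at E14.5.

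Proton pump and squamous genes set the stomach apart from both tissues. Atp4a changed by 0.79 ± 0.22 in pylorus and -0.06 ± 0.25 in duodenum, and the stomach change exceeded these by 4.95 ± 0.32 (limma adjusted p = 1.09e-06) and 5.80 ± 0.34 (limma adjusted p = 2.23e-07). For Atp4b the excess was 2.82 ± 0.23 over pylorus and 3.31 ± 0.25 over duodenum. Krt13 exceeded the pyloric change by 5.07 ± 0.40 and the duodenal one by 5.82 ± 0.43, and Krt5 by 3.80 ± 0.68 and 3.48 ± 0.72. Of the 16 squamous genes 8 had a higher change in stomach than in pylorus and 12 a higher one than in duodenum. Of the 19 gastric surface genes 1 had a higher change than in pylorus and 11 a higher one than in duodenum. Over all genes the shares with a higher change were 0.945% against pylorus and 15.5% against duodenum. Gkn1, Gkn2 and Tff1 exceeded the duodenal change by 5.75 ± 0.66, 4.89 ± 0.65 and 2.79 ± 0.50. Against pylorus their differences were 1.87 ± 0.62, 1.14 ± 0.61 and 0.11 ± 0.47 and were not called, which does not show equal changes.

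**Figure D5:**
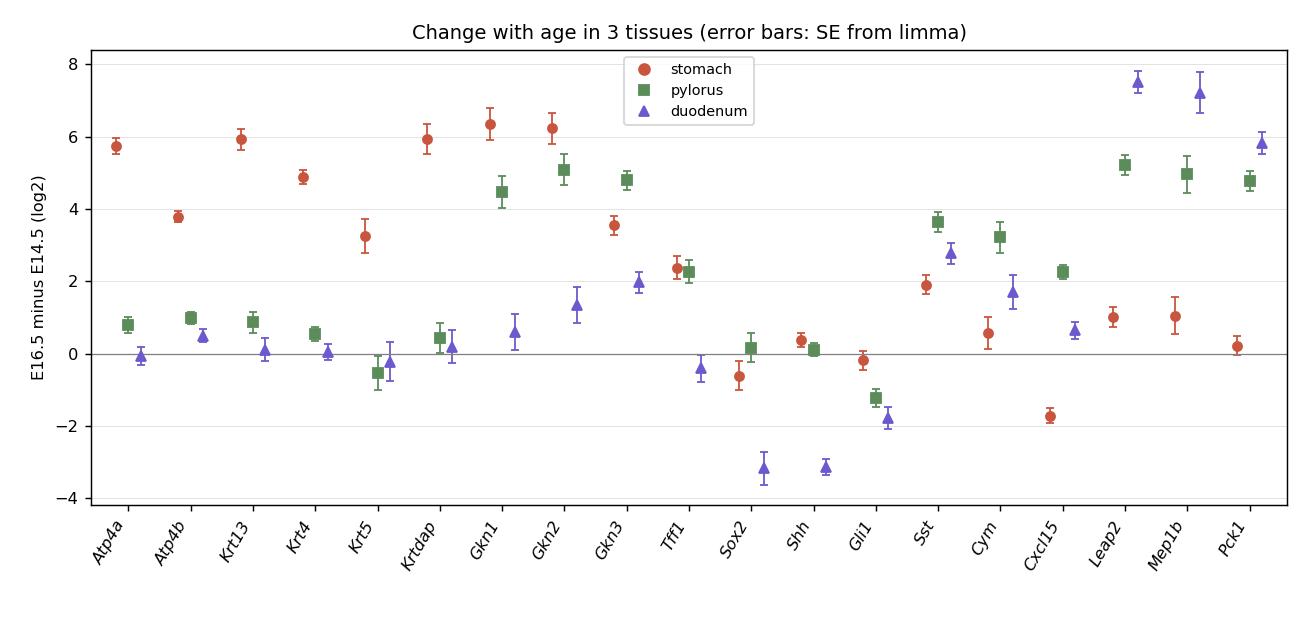
Difference between E16.5 and E14.5 (y axis, log2, with SE from limma) in stomach (circles), pylorus (squares) and duodenum (triangles; 2 samples at E14.5) for 19 genes along the x axis. Atp4a, Krt13 and Krtdap rose by over 5 in stomach and by under 1 in both other tissues, while Leap2, Mep1b and Pck1 show the reverse order.

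Of the 24 intestinal absorption genes 0 had a higher change in stomach than in either tissue. A lower change than in pylorus was called for 5 and than in duodenum for 11, beside 1.54% and 11.9% of all genes. Several of the genes with the steepest rises in stomach were not among them. Fabp1 changed by 5.34 in stomach, 3.04 in pylorus and 3.43 in duodenum, Fabp2 by 5.2, 3.23 and 3.63, and Apoa4 by 4.99, 4.81 and 5.67, and none of these differences between tissues was called. Leap2, an antimicrobial peptide of enterocytes, rose by 1.02 in stomach, 5.21 ± 0.28 in pylorus and 7.52 ± 0.31 in duodenum, so the stomach change was different by -4.19 ± 0.39 and -6.50 ± 0.41. Mme, at -0.23 ± 0.51 in stomach, changed by 6.49 ± 0.57 in duodenum, a difference of -6.72 ± 0.76. Cxcl15 is a case of opposite directions, since it fell in stomach and changed by 2.26 ± 0.20 in pylorus, a difference of -3.98 ± 0.29 (limma adjusted p = 3.07e-06).

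Many genes of muscle, matrix, neurons and cell division had a higher change in stomach than in duodenum. For cell division, neuron and Hox genes the list medians were falls in both tissues, smaller in stomach. They were -0.63, -0.60 and -0.71 in stomach and -1.45, -1.81 and -1.73 in duodenum. Of 26 smooth muscle genes 20 had a higher change than in duodenum and 0 a lower one, and the corresponding counts were 26 and 0 of 33 matrix genes, 20 and 0 of 26 cell division genes, 16 and 1 of 23 enteric neuron genes, and 10 and 0 of 19 Hox genes. The counts were smaller for mesenchymal transcription factors, at 5 and 2 of 20, and for glia and their progenitors, at 3 and 1 of 8, beside 15.5% and 11.9% of all genes. Against pylorus, where 2.49% of all genes were called, limma called 0 smooth muscle, cell division, neuron and Hox genes and 1 matrix gene. In the first 4 of these lists 9, 1, 3 and 4 genes had an unadjusted p under 0.05, and array weights gave 5, 1, 1 and 3 calls. Over all 18193 genes, 2938 had an unadjusted p under 0.05, and array weights called 1732. Shh changed by -3.15 ± 0.22 in duodenum, where it fell, and the stomach change exceeded that by 3.54 ± 0.29. For Sox2 the duodenal change was -3.18 ± 0.45 and the stomach change was higher by 2.57 ± 0.60. Genes of MHC class I and the interferon response stood on the other side. Of 14, 9 had a lower change in stomach than in duodenum and 2 a higher one, beside 11.9% and 15.5% of all genes.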

How the data were processed

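Each of the 18 arrays measured total RNA of pooled tissue, labelled as biotinylated cRNA for an Affymetrix mouse array, per the labels' protocols. The deposited values are log2 intensities, made by the authors. The submitters' processing notes name GCOS and RMA. The sources used here give no version of either, and do not say if the 18 arrays were normalized together. The deposited table holds 45101 probe sets between 3.55 and 15.22, with array medians of 6.75 to 6.92, and was not scaled further. The number of arrays limits the precision.

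Probe sets were named from the platform's annotation. Those carrying exactly 1 gene symbol, 34945 in all, covered 18193 genes. For the 9010 genes with several probe sets, the brightest on average across the 18 arrays was taken. Another 932 carried several symbols, 9160 none, and 64 were controls. Gene identifiers of 34741 probe sets were found in a RefSeq table. Promoter windows came from RefSeq for 14452 of the genes.

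limma 3.58.1 in R 4.3.3 fitted a mean for each of 6 groups to 17 samples (duodenum replicates 1 and 2 of E14.5 averaged), with moderated variances (residual degrees of freedom 11, prior 3.95). P-values were adjusted by Benjamini-Hochberg over all genes; a call is an adjusted p under 0.05. Tables and figures were made with Python 3.11.15, pandas 2.3.3 and matplotlib 3.10.9. On simulated data of this design with 18193 genes, 67, 67 and 66 genes were given log2 changes of 0.5, 1 and 2. The stomach comparison recovered 43.3%, 94.0% and 95.5% of them, with 4.9% false calls. False calls were 3.6% for the difference from pylorus and 7.3% for that from duodenum.

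The gene lists, 42 in number, and the named genes were chosen with earlier results of these data known. Named were the 12 largest called rises and falls without overlap of pools, the 2 largest called changes in each direction per list (the 2 largest differences where fewer than 2 were called), a panel of 48 measured genes, and the 6 largest called differences in each direction from pylorus and from duodenum, clone names passed over. This gave 180 genes, and 56 more were named after their values were seen. Of 118 named genes with more than 1 probe set, 104 were called, and in 93 of those every probe set had the same sign. Alternatives tried were fits on the compared groups alone, a replicate block, averaging over probe sets, every probe set, quantile normalization, median centring, omission of genes under log2 7, a trended robust prior, 18 separate arrays, array weights, and omission of each pool.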

Additional observations from a re-analysis of the deposited data

Results flagged for a closer look

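The change with age differed between stomach and pylorus in 453 genes and between stomach and duodenum in 4996 genes, by limma's test of the difference between the changes. The genes given here are those of the panel that passed this test and the 6 largest called differences in each direction, clone names passed over; other named genes passed it too. Values are the stomach change minus the change in the other tissue, on the log2 scale.

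Against pylorus the proton pump genes Atp4a and Atp4b differed by 4.95 and 2.82. Squamous and cornification genes had a higher change in stomach: Krtdap by 5.50, Krt13 by 5.07, Rptn by 4.50, Krt4 by 4.35, Csta1 by 4.29 and Krt5 by 3.80. The sphincter factor Nkx2-5 differed by 1.18; it changed by -0.16 in stomach, which was not called, and by -1.34 in pylorus. Lower changes in stomach were found for Reg1 (-5.12), Smcp (-4.85), Pck1 (-4.57), Clca4b (-4.28), Leap2 (-4.19), Cxcl15 (-3.98), Cym (-2.64) and Sst (-1.72). Over 21 alternatives each, the call of Cym was lost in 10, of Sst in 8, of Nkx2-5 in 6 and of Reg1 in 2, with limma adjusted p up to 0.0946, 0.0891, 0.0728 and 0.0536. Over all alternatives the differences lay between -3.06 and -2.09 for Cym, -1.95 and -1.55 for Sst, 1.02 and 1.47 for Nkx2-5, and -6.04 and -4.48 for Reg1.

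Against duodenum the higher changes in stomach were those of Krt13 (5.82), Atp4a (5.80), Gkn1 (5.75), Krtdap (5.75), Gkn2 (4.89), Krt4 (4.85), Shh (3.54), Krt5 (3.48), Atp4b (3.31), Pgc (3.05), Tff1 (2.79), Sox2 (2.57), Gli1 (1.59), Muc1 (1.58), Gkn3 (1.57), Actg2 (1.29), Myh11 (1.29), Hmga2 (0.92) and Wnt5a (0.87). The lower changes were those of Mme (-6.72), Leap2 (-6.50), Meltf (-6.26), Mep1b (-6.17), Hyal5 (-6.16), Smcp (-5.76), Gata4 (-0.50) and Igf2 (-0.46). Of 20 alternatives each, the call was lost in 14 for Gata4, 9 for Hmga2, 8 for Myh11, 7 for Muc1, 3 for Igf2 and 1 each for Gli1 and Wnt5a. The largest limma adjusted p among the alternatives was 0.346 for Gata4, 0.146 for Hmga2, 0.103 for Myh11, 0.0882 for Muc1, 0.295 for Igf2, 0.0515 for Gli1 and 0.147 for Wnt5a.

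The other 33 differences given here kept their call under every alternative. Groups of 3 pools were not tested for outlying samples.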

How the results depend on the processing

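The count of called genes between the ages, 7433 of 18193, was 15725 of 45037 when every probe set was tested in place of 1 per gene. It was 8296 with the stomach arrays alone and 9253 with array weights. When 1 stomach pool was left out, it lay between 5893 and 6428. The count of genes whose change differed from that in pylorus, 453, was 289 of 11374 without genes under log2 7 and 1732 with array weights. With 1 pool left out it ran from 209, without replicate 2 of pylorus at E16.5, to 701, without replicate 1 of pylorus at E14.5. The count against duodenum, 4996 of 18193, was 7795 of 45037 over every probe set, 5702 with 18 separate arrays and 6912 with array weights. With 1 pool left out it ran from 3256, without replicate 3 of duodenum at E14.5, to 5680, without replicate 1 of duodenum at E16.5. Of the 199 named genes called between the ages, 162 kept the call under every alternative that tested them.

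The named genes that changed sign were not called as deposited, except Fen1 and Marveld3. Averaging all probe sets of a gene gave -0.01 for Fen1, 0.04 for Marveld3 and 0.25 for Epcam. Quantile normalization turned Hba-a1 to -0.02, and array weights turned Alas2 to -0.01. When 1 stomach pool was left out, the difference ran from -0.21 to 0.37 for Alas2, from -0.38 to 1.13 for Alb, from -0.04 to 0.41 for Axin2, from -0.09 to 0.40 for Bmp4 and from -0.40 to 0.01 for Epcam. It ran from -0.36 to 0.01 for Gli1, from -0.01 to 0.11 for Grem1, from -0.89 to 0.29 for Mme, from -0.31 to 0.32 for Myh11 and from -0.39 to 0.05 for Notch1. The cause of these shifts was not tested.

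Deviations from the group means correlated at 0.211, 0.235 and -0.277 between stomach pools of the same number (9554 genes with a mean above log2 8). Between pools of different numbers the correlations ran from -0.396 to 0.235. With 3 pools an age these values depend on each other, so they cannot decide whether replicate numbers pair the pools. With the replicate block in the fit 7505 genes were called between the ages, 589 against pylorus and 4999 against duodenum. Precision is limited by 3 pools a group.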

Other observations

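The steepest rise of the comparison belonged to a gene that carries a clone name alone and was therefore outside the naming rule. The gene 2210407C18Rik read 6.80, 6.90 and 6.60 at E14.5 and 13.35, 14.34 and 13.92 at E16.5, a difference of 7.10 ± 0.33 (138-fold; limma adjusted p = 2.9e-09). It changed by 4.79 in pylorus and 2.16 in duodenum, and the stomach change exceeded these by 2.32 ± 0.47 (limma adjusted p = 0.0158) and 4.94 ± 0.49 (limma adjusted p = 7.9e-06). Its pools followed the order of Gkn1 at E16.5, with replicate 1 lowest and replicate 2 highest. The gene was singled out after its values were seen.

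Among the largest changes by the naming rule, several belonged to no list, and 2 of those are not described above. Teddm3, which encodes a membrane protein, rose from 4.96, 5.07 and 5.17 to 8.87, 11.11 and 10.71, and Fndc3c1, which encodes a fibronectin domain protein, fell from 9.88, 9.68 and 9.61 to 7.41, 7.57 and 7.81.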
